A study of Mus musculus with 14 samples.

Results

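The genes described here are 10 members of the Wnt system. They are the ligands Wnt4, Wnt5a, Wnt5b, Wnt7a, Wnt7b and Wnt10a, the receptor Fzd7, the secreted modulators Sfrp1 and Dkk3, and the target gene Axin2. They were taken by name, through every probe set (the group of probes that an array uses to measure 1 transcript) whose platform annotation gives 1 of these symbols and no other. This gave 25 probe sets, of 45037 that are not array controls, and each of the 10 genes had at least 1. They are 10 of 18193 genes that some probe set names alone.

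RNA came from SCp2, an immortal epithelial line of the mouse mammary gland, grown in DMEM with 2% fetal calf serum in 35 mm dishes, and each of 14 dishes was measured on 1 Affymetrix mouse expression array. Experiment A held 3 dishes with MMP3, a matrix metalloproteinase that degrades extracellular matrix and clips proteins from the cell surface, and 3 control dishes, 1 of each agent at 50K, 100K and 250K plated cells. Experiment B held 4 MMP3 dishes and 4 control dishes at the same densities plus 25K. Exposure lasted 3 days in both. All dishes hold 1 cell line, so no other genotype or cell source was measured. The labels give neither the dose of MMP3 nor what the control dishes received. Each combination of agent and density was thus measured once per experiment. The labels do not say that dishes came from separate cultures. With no repeated dish, p-values measure only how far these dishes lie from the fitted terms of agent and density.

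Wnt proteins are secreted lipid-modified signals that bind Frizzled receptors on the cell surface. In the canonical branch this stabilises beta-catenin, which enters the nucleus and, with TCF and LEF factors, switches on target genes such as Axin2. In other branches, for which Wnt5a is the usual example, the signal acts on cell polarity and movement without beta-catenin. In the mammary gland, Wnt4 is known as a signal for side branching downstream of progesterone, and Wnt5a as a factor that restrains branching.

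The deposited values are relative log2 expression. Each probe set is centred, with its median at 0, so a value gives the distance of that array from the middle of the 14 and no absolute level. Values are compared here between arrays of 1 probe set, and never between genes. For the same reason the labelled cell type could not be checked by the level of its markers. Of 11 probe sets of 6 epithelial markers, 7 varied. With MMP3 in experiment A, Epcam (1.18, adjusted p = 0.0191) and Cdh1 (0.89, adjusted p = 0.0334) rose and Krt5 fell by 1.03 (adjusted p = 0.0234) on the log2 scale (limma). The other Epcam probe set (0.81, adjusted p = 0.0659, limma) and every probe set of Krt8, Krt14 and Krt18 did not pass. None of 30 probe sets of fibroblast, macrophage, endothelial and adipocyte markers passed that test. Of these, 3 of 10 fibroblast, 3 of 8 macrophage, 0 of 5 endothelial and 4 of 7 adipocyte probe sets varied. The macrophage marker Cd68 had an SD of 1.35. An adipocyte probe set, of Lpl, had an effect of -1.44 in A (adjusted p = 0.0658, limma).

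Arrays of experiment B stood apart in 2 ways that touch the results from B and from both experiments together. Ifit1, an interferon-induced gene, lay between 2.83 and 4.21 in the MMP3 dishes of experiment A, against -2.98 to -2.91 in its control dishes. In experiment B, Ifit1 was 4.53 and 5.15 in the MMP3 dishes at 50K and 250K but -2.83 and -2.97 in those at 25K and 100K. Control dishes of experiment B had 3.71 and 4.26 at 50K and 250K, against -2.93 at both 25K and 100K. So 4 arrays went against their labels by this gene: MMP3 25K, MMP3 100K, control 50K and control 250K. Beyond that, the SD over all probe sets was 0.869 for MMP3 100K of experiment B and 0.232 to 0.412 for the other 13 arrays, and the 5′ actin control probe set was at -2.47 on that array. Within experiment A, the 18S control probe set ran from 0.88 to 1.07 in MMP3 dishes and from 0.72 to 0.81 in control dishes. For the Gapdh controls, 3′ minus 5′ gave 0.04 to 0.17 in MMP3 dishes and -0.03 to 0.03 in control dishes. For the actin controls the agents overlapped, at -0.145 to 0.093 in MMP3 dishes and -0.049 to 0.110 in control dishes. The part of these measures in the results was not tested. Agents are compared as labelled throughout, and the fit without the 4 arrays is given beside it. Some members below split in B as Ifit1 does, and the share of all probe sets that do so was not counted.

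Promoter sequences show the DNA before the starts of the receptor, of a ligand and of the canonical target. RefSeq promoters (GRCm38.p6) were at hand for 5 of the 10 genes, Wnt4, Wnt5b, Wnt7a, Fzd7 and Axin2, with 7 start sites in all. The 250 bases before each start were searched on both strands for the TCF/LEF core spelled CTTTG and then AA, AT, TA or TT. A match on the plus strand can share letters with a neighbouring match on the minus strand, and 14.8% of 32851 windows of that length hold at least 1. A match (2 of 7 windows) is printed in capitals, with the sequences in lower case on the strand of the gene, 5′ to 3′, each ending 1 base before the start.
Fzd7, chr1:59481897-59482146, plus strand: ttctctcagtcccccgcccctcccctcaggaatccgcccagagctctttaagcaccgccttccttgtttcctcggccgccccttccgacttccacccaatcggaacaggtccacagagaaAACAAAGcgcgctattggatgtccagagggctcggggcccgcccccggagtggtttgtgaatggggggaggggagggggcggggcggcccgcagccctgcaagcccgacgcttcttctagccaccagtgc
Wnt4, chr4:137277385-137277634, plus strand: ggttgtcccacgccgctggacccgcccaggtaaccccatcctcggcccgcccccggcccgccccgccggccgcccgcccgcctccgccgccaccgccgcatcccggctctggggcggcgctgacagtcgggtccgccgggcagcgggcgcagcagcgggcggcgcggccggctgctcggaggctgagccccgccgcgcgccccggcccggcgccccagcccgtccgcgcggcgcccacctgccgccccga
Axin2, chr11:108920099-108920348, plus strand: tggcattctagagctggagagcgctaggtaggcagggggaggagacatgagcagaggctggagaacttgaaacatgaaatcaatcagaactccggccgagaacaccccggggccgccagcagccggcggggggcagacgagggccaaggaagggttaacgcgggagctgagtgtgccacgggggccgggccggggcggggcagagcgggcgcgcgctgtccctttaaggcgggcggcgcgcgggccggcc
The Fzd7 window holds AACAAAG, the core on the opposite strand, whose first base lies 130 bases before the start. Neither the Axin2 window nor the Wnt4 window holds a spelling, and 85.2% of the Wnt4 window is G or C. The other match, CTTTGAT, lies 71 bases before 1 of the 3 Wnt5b starts (chr6:119449387-119449636, minus strand).

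Of the 25 probe sets, 18 varied over the 14 arrays and 7 barely did, with an SD under 0.049, the 40th percentile of all probe sets. Every gene had at least 1 probe set that varied. The 7 that barely varied were 1 each for Axin2 (1421341_at), Fzd7 (1450043_at), Wnt5a (1456976_at), Wnt5b (1422602_a_at) and Wnt7b (1420891_at) and 2 for Wnt7a (1423367_at and 1458334_at). Their SDs ran from 0.011 to 0.026, and no value of theirs lay farther from 0 than 0.071. At the other end stood Wnt4 1441687_at with an SD of 1.25, Wnt5a 1436791_at with 1.03 and Dkk3 1448669_at with 0.99 on the log2 scale. Where a gene had a varying and a flat probe set, as for Fzd7, Wnt7b and Axin2, the results below rest on the varying one, and whether the flat one detected its transcript cannot be read from centred values. By the annotation, 3 Sfrp1 probe sets were designed from 1 source sequence, and so were both of Dkk3, both of Wnt7b and both of Fzd7.

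**Figure D1:**
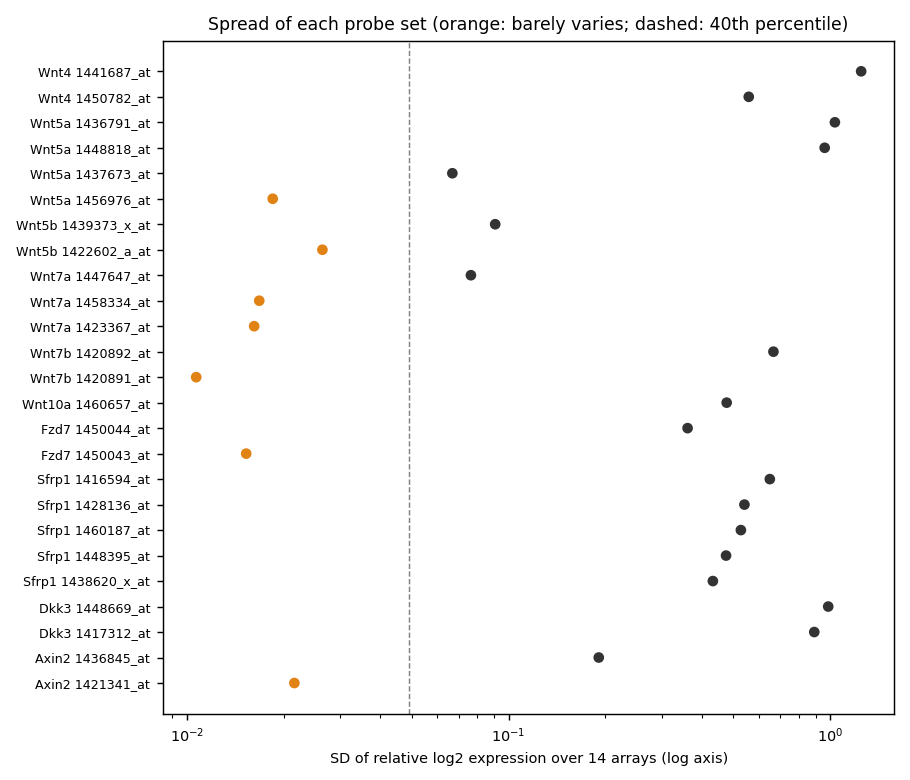
SD of relative log2 expression over the 14 arrays (log axis) for each of the 25 probe sets. The 7 orange points lie left of the dashed line at 0.049, and Wnt4 1441687_at lies farthest right at 1.25.

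The first question was whether MMP3 moved these genes in experiment A, where Ifit1 split the dishes as their labels do. Sfrp1, a secreted protein that binds Wnts and Frizzleds, fell by 0.60 (SE 0.0115, adjusted p = 0.0199, probe set 1428136_at) and by 0.52 (SE 0.0436, adjusted p = 0.0495, 1438620_x_at) on the log2 scale. Dkk3, a secreted member of the Dickkopf family, rose by 1.11 (SE 0.0610, adjusted p = 0.0364, 1417312_at), which is 2.15-fold. Effects are MMP3 minus control at the mean log2 density, from limma with Benjamini-Hochberg adjustment over all 45037 probe sets and a threshold of 0.05. The share of probe sets past it was 3 of 25 members (12%), 1 up and 2 down, and 4.11% of all probe sets, 2.41% up and 1.71% down. At an unadjusted p under 0.05, 13 of the 25 members passed, beside 23% of all. The median effect over the 25 was -0.018, and -0.018 over all probe sets. This fit has 2 residual degrees of freedom. Its error is the departure of the dishes from a straight line in log2 density for each agent, not a spread between repeated dishes. For Sfrp1 1428136_at the SE was 0.0115 as fitted and 0.153 without the product of agent and density. With the matched dishes of each density as a block it was 0.18. When a single array was dropped, whichever of the 6 it was, no probe set of the 45037 passed, and with the matched dishes of each density as a block 2.23% of all did but no member.

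MMP3 and control dishes of experiment A did not overlap at 17 of the 25 probe sets, beside 53.6% of all probe sets. The medians of whole arrays also split by agent in A, at -0.010 to -0.001 with MMP3 and 0.001 to 0.016 in control. After the median of each array was subtracted (a step chosen after seeing the data), 11 of 25 did not overlap, beside 28% of all. Of these, 4 were above control with MMP3 (both of Dkk3, Wnt7b 1420892_at and Wnt5b 1439373_x_at) and 7 were below it (Wnt4 1450782_at, Wnt5a 1436791_at and 1448818_at, Fzd7 1450044_at, and Sfrp1 1416594_at, 1448395_at and 1438620_x_at). Wnt5b 1439373_x_at overlapped before the subtraction, and its effect after it was only 0.018 on the log2 scale. In experiment B no member was without overlap, beside 5.58% of all, or 6.43% after the same subtraction. The split of all probe sets in A by direction was 10% above and 43.5% below control, and 13.9% and 14.1% after subtraction.

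**Figure D2:**
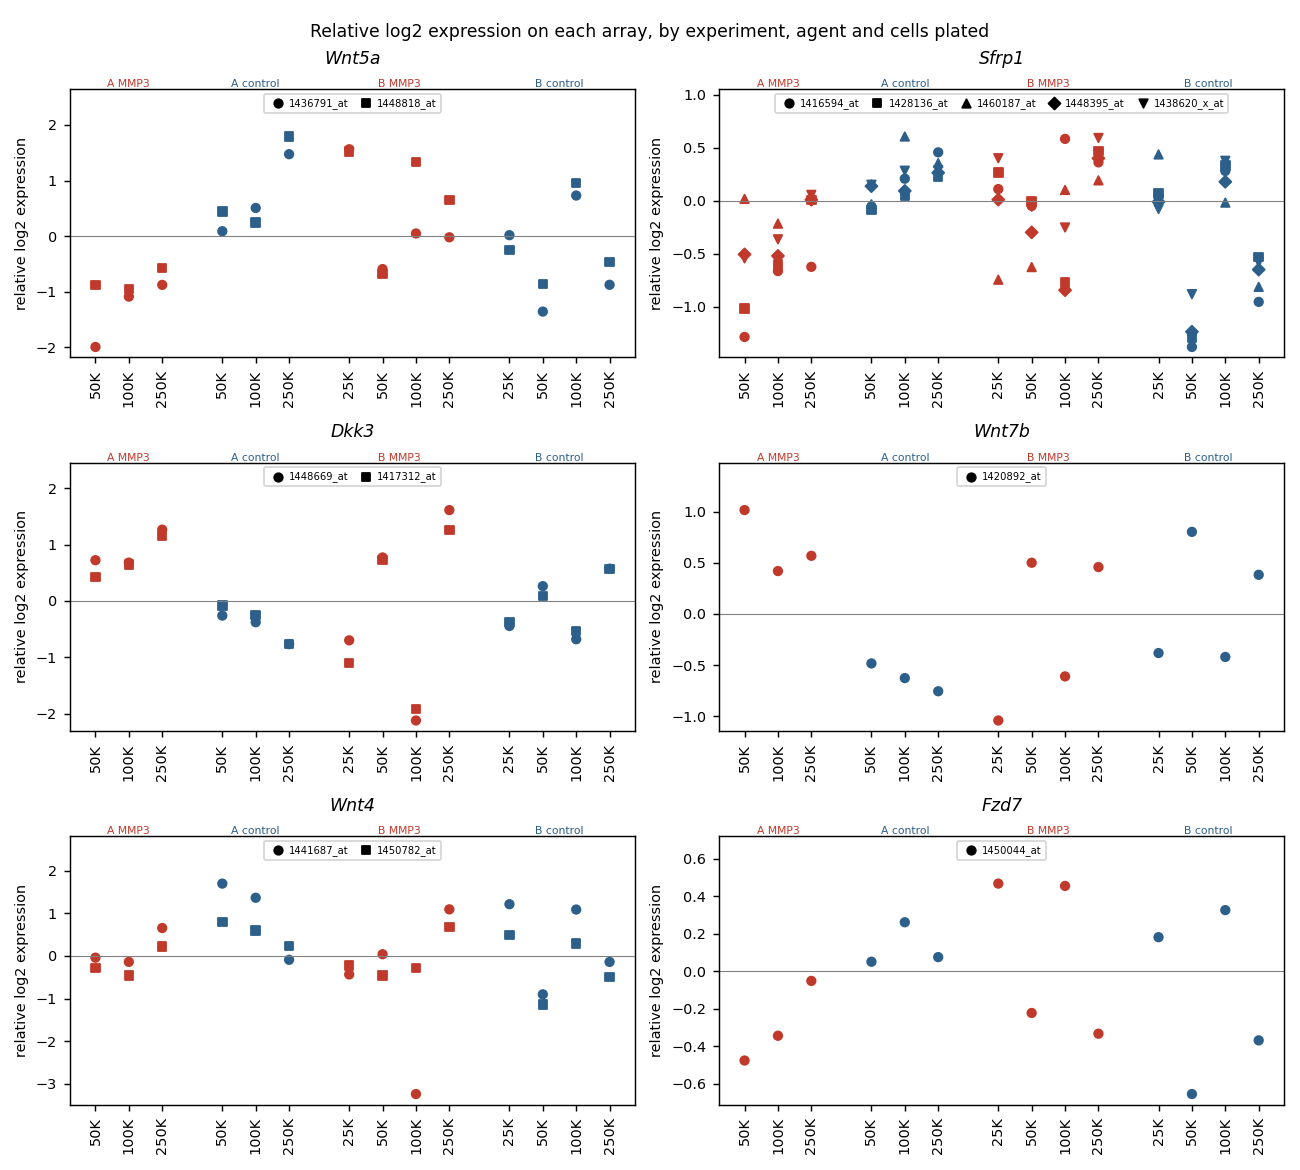
Relative log2 expression of 6 genes on each of the 14 arrays, with experiment, agent (MMP3 red, control blue) and plated cells on the horizontal axis and marker shapes for probe sets. In experiment A, Wnt5a 1436791_at was -1.99 to -0.87 with MMP3 and 0.09 to 1.47 in control, and Dkk3 1448669_at was 0.68 to 1.26 with MMP3 and -0.77 to -0.26 in control.

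Wnt5a, a ligand of the branches without beta-catenin, had the largest difference of the 25 probe sets in experiment A. At 1436791_at its MMP3 dishes read -1.99, -1.08 and -0.87 at 50K, 100K and 250K, against 0.09, 0.51 and 1.47 in control dishes. The second probe set, 1448818_at, read -0.88, -0.94 and -0.57 with MMP3 and 0.44, 0.25 and 1.79 in control. All MMP3 values lay below all control values at both. The effect was -2.01 (SE 0.187), a 4.02-fold difference, and -1.62 (SE 0.324) at the second, and neither passed (limma, adjusted p = 0.0548 and adjusted p = 0.131).

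In experiment B the Wnt5a order was not that of A. Dishes with MMP3 read 1.56, -0.59, 0.05 and -0.02 at 25K, 50K, 100K and 250K (1436791_at), against 0.02, -1.35, 0.73 and -0.87 in control. At 1448818_at the MMP3 dishes read 1.53, -0.67, 1.33 and 0.65, against -0.25, -0.86, 0.96 and -0.46 in control. MMP3 was above control in 3 of 4 matched pairs at the first probe set and in 4 of 4 at the second. For 1436791_at, both dishes at 50K and both at 250K, the 4 with high Ifit1, lay below all 4 at 25K and 100K. The MMP3 effects of 0.62 (SE 0.673) and 0.86 (SE 0.704) did not pass (adjusted p = 1 for both, limma). The first ranged from 0.13 (without MMP3 25K) to 1.02 (without control 100K) when 1 array was left out. The other Wnt5a probe sets varied little: 1437673_at had its highest value, 0.21, on MMP3 25K of experiment B, and 1456976_at barely varied.

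Wnt7b is a ligand that acts mainly through beta-catenin. In experiment A, 1420892_at read 1.02, 0.42 and 0.57 with MMP3 and -0.48, -0.63 and -0.76 in control, at 50K, 100K and 250K. All MMP3 values lay above all control values, and the effect was 1.29 (SE 0.164, adjusted p = 0.0749). In experiment B its MMP3 dishes read -1.04, 0.50, -0.61 and 0.46 at 25K, 50K, 100K and 250K, against -0.38, 0.80, -0.42 and 0.38 in control. Here the dishes at 50K and 250K of both agents, those with high Ifit1, lay above those at 25K and 100K of both agents. The effect in B was -0.27 (SE 0.481, adjusted p = 1).

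Wnt4 was lower with MMP3 at 2 of the 3 densities of experiment A. At 1441687_at the MMP3 dishes read -0.04, -0.14 and 0.65, against 1.70, 1.36 and -0.09 in control. At 1450782_at they read -0.28, -0.46 and 0.22, against 0.80, 0.60 and 0.23 in control. Both probe sets thus differed by more than 1 on the log2 scale at 50K and 100K, while at 250K the first was higher with MMP3 and the second lay within 0.014. The effects at the mean density were -0.83 (SE 0.239, adjusted p = 0.211) and -0.72 (SE 0.161, adjusted p = 0.153). Without control 250K the first was -1.33, and without MMP3 250K it was -1.31.

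Experiment B gave Wnt4 the widest spread of any member. At 1441687_at its MMP3 dishes read -0.43, 0.04, -3.24 and 1.09 at 25K, 50K, 100K and 250K, against 1.21, -0.90, 1.09 and -0.14 in control. At 1450782_at they read -0.22, -0.46, -0.28 and 0.68, against 0.49, -1.14, 0.29 and -0.49 in control. The value of -3.24 is that of MMP3 100K, the array with the widest spread over all probe sets, and the second probe set did not show it. With MMP3, both probe sets were lower than control at 25K and 100K and higher at 50K and 250K.

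Wnt10a, a canonical ligand known for its role in hair and teeth, differed less. Its 1 probe set read 0.50, 0.45 and -0.05 with MMP3 in experiment A and 0.43, 0.05 and -0.09 in control. In experiment B the MMP3 dishes read -0.15, -0.07, -1.46 and -0.09, against 0.10, 0.30, -0.16 and 0.05 in control. MMP3 was above control in 3 of 3 pairs of A and below it in 4 of 4 pairs of B, by the most at 100K of B. The effects were 0.18 (SE 0.0999, adjusted p = 0.258) in A and -0.51 (SE 0.389, adjusted p = 1) in B.

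Wnt5b and Wnt7a hardly left 0. Wnt5b 1439373_x_at ranged from -0.13 (MMP3 50K of experiment B) to 0.29 (control 250K of experiment B), and Wnt7a 1447647_at reached 0.22 on MMP3 25K of experiment B. On the 6 arrays of experiment A, these probe sets differed by at most 0.026 (Wnt5b 1439373_x_at) and 0.037 (Wnt7a 1447647_at) within a matched pair. Their effects in A were 0.002 (SE 0.0113) and -0.026 (SE 0.0216).

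Fzd7 is a Frizzled receptor linked to stem-like cells in several epithelia. At 1450044_at the MMP3 dishes of experiment A read -0.48, -0.34 and -0.05 at 50K, 100K and 250K, against 0.05, 0.26 and 0.08 in control. MMP3 was lower in every pair, by 0.53 and 0.61 at the lower densities and by 0.13 at 250K, and the effect was -0.42 (SE 0.0837, adjusted p = 0.131). In experiment B its MMP3 dishes read 0.47, -0.22, 0.46 and -0.33, against 0.18, -0.65, 0.33 and -0.37 in control. MMP3 was higher in 4 of 4 pairs there, by 0.04 to 0.43, while all dishes at 50K and 250K, those with high Ifit1, lay below all dishes at 25K and 100K. The effect in B was 0.22 (SE 0.323, adjusted p = 1).

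Sfrp1 had 5 probe sets, all of which varied. At 1428136_at, past the threshold above, the MMP3 dishes of experiment A read -1.02, -0.60 and 0.01, against -0.09, 0.05 and 0.22 in control. At 1438620_x_at they read -0.54, -0.36 and 0.06, against 0.15, 0.28 and 0.29 in control. The groups overlapped at the first, since MMP3 250K lay above control 50K, although MMP3 was lower in each of the 3 pairs at both. The largest effect, -1.06 (SE 0.137), was at 1416594_at, whose MMP3 dishes read -1.28, -0.66 and -0.62, against -0.05, 0.21 and 0.46 in control, and it did not pass (adjusted p = 0.0766, limma). At 1448395_at the effect was -0.50 (SE 0.104, adjusted p = 0.137). At 1460187_at it was -0.36 (SE 0.216, adjusted p = 0.273), with MMP3 above control by 0.05 at 50K. All 5 effects were thus negative in A.

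In experiment B all 5 Sfrp1 effects were positive, and none passed. Sfrp1 1416594_at read 0.11, -0.05, 0.58 and 0.36 with MMP3 at 25K, 50K, 100K and 250K, against 0.05, -1.38, 0.28 and -0.95 in control. Sfrp1 1428136_at read 0.27, -0.01, -0.77 and 0.47 with MMP3, against 0.07, -1.29, 0.33 and -0.53 in control. The control dishes at 50K and 250K were the lowest of the 8 at the first probe set. On MMP3 100K the probe sets disagreed, from -0.84 (1448395_at) to 0.58 (1416594_at). The effects were 0.75 (SE 0.447) at the first and 0.34 (SE 0.504) at the second.

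Dkk3 is named for its family but, unlike Dkk1, is not a clear inhibitor of canonical Wnt signalling. At 1417312_at, past the threshold above, the MMP3 dishes of experiment A read 0.42, 0.65 and 1.15 at 50K, 100K and 250K, against -0.08, -0.25 and -0.76 in control. At 1448669_at they read 0.72, 0.68 and 1.26, against -0.26, -0.38 and -0.77 in control. MMP3 was above control in every pair, and the pair difference was 0.50, 0.90 and 1.91 at the first probe set and 0.98, 1.06 and 2.03 at the second. The effect at the second was 1.36 (SE 0.119, 2.56-fold) and missed the threshold (adjusted p = 0.052, limma).

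In experiment B, Dkk3 did not split by labelled agent. At 1417312_at its MMP3 dishes read -1.11, 0.73, -1.92 and 1.26 at 25K, 50K, 100K and 250K, against -0.38, 0.08, -0.53 and 0.57 in control. At 1448669_at they read -0.70, 0.77, -2.12 and 1.61, against -0.45, 0.26, -0.68 and 0.57 in control. All 4 dishes at 50K and 250K, which are the 4 with high Ifit1, lay above all 4 at 25K and 100K at both probe sets. How many of all probe sets split in this way was not counted. The split is no order of density, and the slopes per doubling of plated cells in B, 0.33 (SE 0.321) and 0.32 (SE 0.367), did not pass (adjusted p = 0.954 for both). The MMP3 effects were -0.20 (SE 0.789) and -0.04 (SE 0.903), with adjusted p = 1 for both.

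Axin2, a scaffold of the complex that destroys beta-catenin and the textbook readout of canonical signalling, was close to flat. At 1436845_at the MMP3 dishes of experiment A read 0.27, -0.01 and 0.28, against -0.00, 0.01 and -0.01 in control. In experiment B they read 0.01, -0.03, -0.32 and -0.03, against -0.00, 0.00, 0.00 and 0.50 in control. Only 4 of 14 arrays therefore lay more than 0.1 from 0: MMP3 50K and MMP3 250K of A, MMP3 100K of B and control 250K of B. The effects were 0.18 (SE 0.116, adjusted p = 0.295) in A and -0.22 (SE 0.115, adjusted p = 0.886) in B. Single arrays set much of both: the effect in A was 0.024 without MMP3 250K, 0.061 without MMP3 50K and 0.27 without MMP3 100K, and that in B was -0.087 without control 250K and -0.14 without MMP3 100K. The second probe set, 1421341_at, barely varied.

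**Figure D3:**
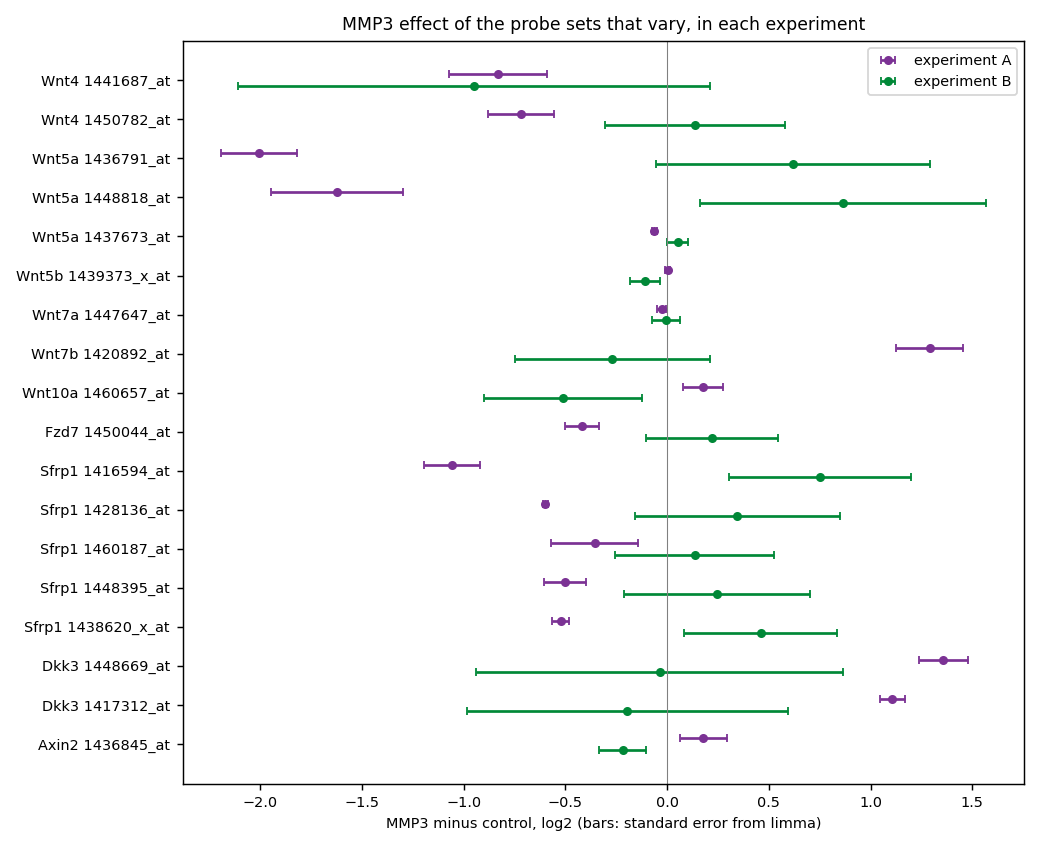
MMP3 minus control on the log2 scale (limma estimate, bars 1 standard error) for the 18 probe sets that vary, with experiment A in purple and B in green. The effect of Wnt5a 1436791_at was -2.01 in A and 0.62 in B, and that of Sfrp1 1416594_at was -1.06 in A and 0.75 in B.

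None of the 25 probe sets passed for MMP3 against control in experiment B, beside 0% of all probe sets. At an unadjusted p under 0.05, 0 members and 7.17% of all passed there. The lowest adjusted p among members was 0.886. The next question was whether the effects of A and B differed, tested on the 12 arrays at the shared densities. No member passed, beside 0% of all. At an unadjusted p under 0.05, 4 of 25 members passed, beside 6.57% of all: Sfrp1 1416594_at (-2.04, SE 0.571), Wnt5a 1436791_at (-2.32, SE 0.718), Wnt7b 1420892_at (1.43, SE 0.572) and Wnt5a 1448818_at (-2.18, SE 0.899), each with adjusted p = 0.709 (A minus B, log2). Without control 100K of experiment B, 2 of these passed, Wnt5a 1436791_at (-2.95, SE 0.266, adjusted p = 0.0379) and Sfrp1 1416594_at (-2.53, SE 0.238, adjusted p = 0.0411), beside 0.167% of all. Each of the other 11 fits that left out 1 array called no member.

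Over both experiments, with experiment as a block, no member passed, beside 0.619% of all probe sets, and none had an unadjusted p under 0.05, beside 10.1% of all. Estimates were, for example, -0.90 (SE 0.636) for Wnt4 1441687_at, -0.51 (SE 0.585) for Wnt5a 1436791_at and 0.56 (SE 0.529) for Dkk3 1448669_at. Without the 4 arrays that went against their labels, 18 of 25 member probe sets of 9 genes passed, beside 55.7% of all, and 6 of those 18 were probe sets that barely vary. With array medians also subtracted, 6 probe sets of 4 genes passed, beside 16% of all. Wnt5a fell by 1.68 (SE 0.209, adjusted p = 0.00606, 1436791_at) and by 1.34 (adjusted p = 0.0212, 1448818_at), and Fzd7 fell by 0.46 (SE 0.0961, adjusted p = 0.0289). Dkk3 rose by 1.49 (SE 0.141, adjusted p = 0.00282, 1448669_at) and by 1.23 (adjusted p = 0.00424, 1417312_at), and Wnt7b rose by 1.20 (SE 0.124, adjusted p = 0.00362). The 4 arrays were left out because of Ifit1, a gene that itself differs between the agents in A, so these 10 arrays are not an independent set. The arrays of B that remain hold no density with both agents. Within B, agents could thus not be compared at a matched density, and these effects do not show that B repeats A.

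Plating density was the other variable. In experiment A, no member passed for the slope per doubling of plated cells, beside 0% of all probe sets. At an unadjusted p under 0.05, 4 of 25 passed, beside 15.7% of all: Wnt5a 1436791_at (0.53, SE 0.0982, adjusted p = 0.235), Sfrp1 1428136_at (0.29, SE 0.00606, adjusted p = 0.112), Sfrp1 1438620_x_at (0.16, SE 0.0229, adjusted p = 0.207) and Wnt10a (-0.23, SE 0.0525, adjusted p = 0.271). That share is close to the one over all probe sets. At Wnt5a 1436791_at the values were higher at each step of density in both agents of A, but at Wnt5a 1448818_at they were lower at 100K than at 50K in both agents (slope 0.38, SE 0.170, adjusted p = 0.426). Dkk3 had opposite orders in the 2 agents of A: with MMP3 1417312_at was highest at 250K (1.15), and in control it was lowest there (-0.76).

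The slope in experiment B passed for no member, at the threshold or at an unadjusted p under 0.05 (0% and 3.12% of all probe sets). For Wnt5a 1436791_at it was -0.21 (SE 0.274) and for Sfrp1 1428136_at -0.01 (SE 0.205). Over both experiments no member passed, beside 0% of all, and 1 of 25 had an unadjusted p under 0.05, Wnt5b 1422602_a_at, which barely varies (7.2% of all). The agent by density interaction passed for no member, beside 0% of all, and none had an unadjusted p under 0.05, beside 1.83% of all. No member passed for the difference between experiments in slope, beside 0% of all, and 1 had an unadjusted p under 0.05, Wnt5b 1439373_x_at (-0.11, SE 0.0350), beside 0.928% of all.

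**Figure D4:**
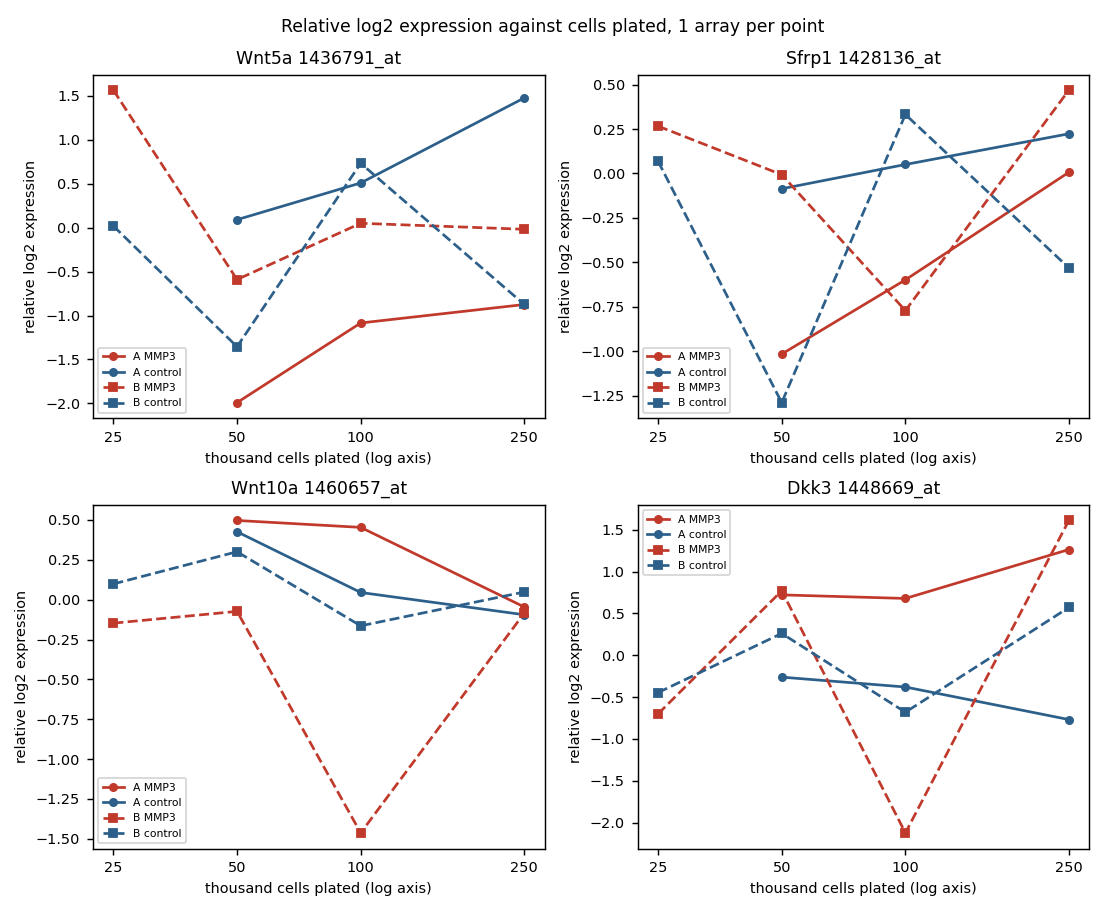
Relative log2 expression of 4 probe sets against plated cells (log axis), 1 array per point, with MMP3 in red, control in blue, experiment A solid and experiment B dashed. In A the Wnt5a lines climb from 50K to 250K in both agents, while in B neither agent follows 1 direction, and Dkk3 and Wnt10a drop on MMP3 100K to -2.12 and -1.46.

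Other genes of the pathway were counted from 9 lists by role, with 90 genes, 88 of them measured by 191 probe sets. In experiment A, 7 probe sets rose and 3 fell with MMP3, 5.24% of the 191 beside 4.11% of all, and in experiment B none passed (limma). Among 18 probe sets of the other ligands 1 rose, Wnt9a, with 2.31, 1.71 and 0.92 in MMP3 dishes, against -1.23, -2.14 and -1.85 in control dishes (effect 3.38, SE 0.260, adjusted p = 0.045). Of 35 receptor probe sets 3 rose, for Fzd3 (2 of 6, up to 1.42) and Fzd6 (1 of 3, 0.57). The receptor Lgr6, which binds R-spondins, fell by 0.54 and the secreted inhibitor Sostdc1 by 1.33, each at 1 of 2 probe sets. For Lgr6 the agents overlapped, at 0.80, 0.04 and -0.89 with MMP3 and 1.06, 0.57 and -0.07 in control, although MMP3 was lower in each pair.

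Inside the cell, 3 of 43 probe sets for signal transduction rose: Csnk1e (0.95) and Csnk1d (0.38), which encode casein kinases, and Ctnnb1 (0.22), which encodes beta-catenin. Each was called at 1 of the gene's 3 to 5 probe sets. Of 26 probe sets of other target genes, only Myc passed, and it fell by 0.60. No probe set passed for ligand secretion (of 5), nuclear factors (of 15) or planar polarity (of 14). The median effect over the 191 was -0.014 beside -0.018 over all.

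The genes most like each member were found by Pearson's r over the 14 arrays, among genes outside the set of 10. Such values are a description, since all points share the same 14 arrays and the 1 array with the widest spread. For Wnt5a 1436791_at they were L3hypdh (0.967) and Trp63 (0.966), the second a factor of basal epithelium. For Sfrp1 1416594_at they were Pltp (0.948), Plxdc1 (0.946) and Fat2 (0.935), and for Fzd7 they were Oxct1 (0.952), Ice1 (0.943) and Rpl14 (0.939). Dkk3 1448669_at was most like Arpc1a (0.988), Rnf149 (0.983) and Ostm1 (0.980). Wnt7b was most like Cdipt (0.971), Samd10 (0.970) and Map7d1 (0.970). Wnt4 1441687_at was most like Mrpl41 (0.960), Mrpl55 (0.951) and Eva1a (0.948), and Wnt10a most like Hnrnpk (0.979), Adss (0.966) and Ammecr1 (0.963). The nearest genes to Axin2 were Cds2 (0.910), Agpat1 (0.900) and Hspa14 (0.855). For Wnt5b 1439373_x_at they were Prl7a1 (0.958), Pitpnm2 (0.953) and Rab39b (0.934), and for Wnt7a 1447647_at Rmi1 (0.887) and Nhlrc2 (0.882).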

How the data were processed

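The authors deposited relative log2 expression made with RMA from Affymetrix arrays, per the submitters' processing notes, which give no version. They state neither a log base nor a centring. The base was taken as 2, as RMA has it, and the centring was seen in the values, where the row medians depart from 0 by at most 5e-07. No intensities were used here, so signal over background is not known, and the number of arrays limits the precision. RNA input was 200 ng per array after phenol and chloroform extraction, per the labels' protocols.

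Groups came from the labels (agent, density, experiment). Of 45101 probe sets, 64 controls were left out. The platform annotation gave 1 symbol for 34945, several for 932 and none for 9160 of the rest. For 34741 the symbol was brought up to date by Entrez identifier.

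The models were fitted with limma 3.58.1 under R 4.3.3 (lmFit, then eBayes, two-sided, Benjamini-Hochberg over 45037 probe sets, threshold 0.05, no filter). Terms were agent, centred log2 density, their product and, over both experiments, experiment as a block. The fit of the difference between experiments had no product of agent and density. Its terms were agent, centred log2 density, experiment, and the products of experiment with agent and with density. Residual degrees of freedom were 2 in A, 4 in B, 9 over both and 6 for the difference between experiments. The letters A and B mark separate experiments in the labels, so the block belongs to the design. The fits were also run on simulated noise with large known effects, as a check that the code returned their size. That check does not measure power in these data.

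All probe sets of the 10 genes are named. From the other pathway genes, up to 3 per list with the largest effect in A among those past the threshold are named, and for likeness the 3 genes with the highest r (provisional symbols left unnamed). Members, lists and tests were chosen with earlier results of these data known. Alternatives were a filter at the 40th percentile of SD, robust eBayes, gene means, no product term, density as blocks, no experiment block, and arrays left out. Subtraction of array medians was added after seeing the data. RefSeq promoters were read by gene symbol.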

Additional observations from a re-analysis of the deposited data

Results flagged for a closer look

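At 4 of the 25 probe sets, all matched pairs of experiment A lay on one side of 0 and all pairs of experiment B on the other (MMP3 minus control). The share of all probe sets with this pattern was not counted. The mean pair difference of A minus that of B was -2.488 for Wnt5a 1448818_at, -1.81 for Sfrp1 1416594_at, 0.689 for Wnt10a 1460657_at and -0.64 for Fzd7 1450044_at on the log2 scale. These contrasts over all pairs were not tested. On the 12 arrays at shared densities, limma gave adjusted p = 0.709 for each of the 4 genes, and 2 of the 4 MMP3 arrays and 2 of the 4 control arrays of B go against their labels by Ifit1.

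In groups of 4 arrays, 4 of 36 had 1 array far from the other 3, measured as its gap to the nearest over the range of the group (Dixon's ratio, whose critical value chance passes in about 1 of 20 groups). For Wnt10a, MMP3 100K of experiment B stood low with a ratio of 0.947. For Axin2 1436845_at, the same array stood low with 0.882, and control 250K of experiment B stood high with 0.992. For Wnt5b 1439373_x_at, MMP3 50K of experiment B stood low with 0.918. MMP3 100K is the array whose SD over all probe sets was 0.869, and its part in these values was not tested.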

How the results depend on the processing

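The count of genes, of the 10, with a probe set past the threshold for MMP3 in experiment A was 2 (Sfrp1 and Dkk3). It was 4 with the filter on SD (Wnt5a, adjusted p = 0.0187, and Wnt7b, 0.026, limma, were added). That filter tested 27022 probe sets and called 19.9% of them, and 8 of the 18 varying member probe sets. With gene means the count of genes was 3 (9.02% of all genes called), with Wnt5a added. It was also 3 with no product term (3 of 25 member probe sets, 5.58% of all). These were Wnt5a, Wnt7b and, through another probe set (1416594_at), Sfrp1, without Dkk3. The count of genes was 2 with array medians subtracted (2 of 25 member probe sets, 2.14% of all). It was 0 with density blocks (2.23%), and 0 to 0 with 1 array left out, where 1 residual degree of freedom remained. Of the 3 called probe sets, Sfrp1 1428136_at (adjusted p = 0.14) and Dkk3 1417312_at (0.161) missed the threshold with no product term, and Sfrp1 1438620_x_at missed it with robust eBayes (0.0653), no product term (0.0962) and medians subtracted (0.0669). Their direction held under all these settings. Over both experiments the count was 0. It was 9 without the 4 arrays of B, where B keeps no density with both agents, and 4 with medians also subtracted. With no replicate block it was 0 too, and the calls among all probe sets were 0, against 279 with the block. For the difference between experiments it was 0 to 2 with 1 array left out, 2 without control 100K of B and 0 in the other 11 fits. The other counts stayed at 0.

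The sign of some estimates turned. With gene means, Wnt5b had -0.0059 in A (0.0024 as fitted) and Wnt7a 0.0002 in B (-0.0063). Without the 4 arrays, over both experiments, Wnt10a had 0.158 (0.177 with medians subtracted, -0.218 with all arrays) and Axin2 0.0985 (0.118, -0.049). Single arrays were left out for the probe set of each gene with the largest SD, and in A also for the called ones. The other member probe sets were not run so. Ranges that crossed 0 were -0.0127 to 0.01 for Wnt5b in A. In B they were -0.0747 to 0.0356 for Wnt7a, -0.5502 to 0.0158 for Wnt7b and -0.7951 to 0.6975 for Dkk3 1448669_at. Over both they were -0.0504 to 0.0075 for Wnt7a, -0.18 to 0.0369 for Fzd7, -0.2597 to 0.1564 for Sfrp1 1416594_at and -0.0991 to 0.0407 for Axin2. The causes were not tested. Centred values give no signal over background, so a flat probe set may be below detection.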
